A study of Mus musculus with 2 samples.

Results

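The insulin-like growth factor (IGF) system was followed through the cell types of the mouse aorta with 10 genes: the ligands Igf1 and Igf2, the receptors Igf1r and Igf2r, and the binding proteins Igfbp2, Igfbp3, Igfbp4, Igfbp5, Igfbp6 and Igfbp7. The members were set by name, and all 10 were among the 32285 genes of the deposited matrix. The data were droplet single-cell RNA counts from aortic cells of ApoE-/- mice aged 20 weeks, a strain that lacks apolipoprotein E and is prone to plaques. Of the 2 samples, one is labelled HFD and the other MSC_ITGB3, and the study's stated design is a look at aortic cell types in HFD-fed mice with and without MSC_ITGB3. The sources used here do not say how the cells were isolated, whether mice were pooled or what MSC_ITGB3 was made of.

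Each barcode in the matrix carries the suffix of 1 of 2 libraries, called library 1 and library 2 here, and nothing in the labels says which library is which sample. The libraries are therefore set side by side, the 2 conditions are not compared, and no test between conditions is possible with 1 library each. Levels are CPM, the UMIs (molecules counted) of a gene per 1000000 UMIs of all barcodes of a cell type, and values in parentheses are exact Poisson 95% intervals, which cover counting error only. Barcodes with at least 3000 UMIs and at most 20% mitochondrial UMIs numbered 6332 in library 1 and 6540 in library 2, with medians of 8746 and 6031 UMIs. Marker genes placed 4151 and 3962 of them in 7 cell types with at least 50 barcodes in each library, and 1920 (30.3%) and 2476 (37.9%) stayed in no class. Between 6.65% and 38.7% of a member's UMIs lay in those unplaced barcodes. The classes were contractile smooth muscle (992 and 1442 barcodes), modulated smooth muscle (201 and 278), fibroblast (1300 and 1148), chondrocyte (65 and 348), blood endothelial (1041 and 268), macrophage (405 and 371) and T cell (147 and 107). All markers of a class reached 20 CPM in it except 1 of the 11 chondrocyte markers, and no IGF gene was a marker. The 2 libraries shared 17 barcode sequences.

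Free RNA from broken cells reaches every droplet, so each level was set beside a carry-over figure. This figure multiplies a gene's level in barcodes with 20 to 100 UMIs by a share, 5.28% to 14.9% in library 1 and 11.8% to 23.9% in library 2. The share compares marker levels in the class with those barcodes. It is the highest for markers of contractile smooth muscle, endothelial cells, macrophages, or the fibroblast genes Dpt, Clec3b and Scara5. A class's own markers were left out, as were the fibroblast genes for smooth muscle and chondrocytes and the contractile markers for modulated smooth muscle. Other lists reached higher shares, such as all 10 fibroblast markers (26.1% and 27.4%) and T cell markers (27.4% and 50.8%) in endothelial cells. A level at or under the figure is read as background, and one above it can still hold free RNA.

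IGF1 and IGF2 are small secreted hormones related to insulin. IGF1 signals through the tyrosine kinase IGF1R, while IGF2R, the cation-independent mannose 6-phosphate receptor, takes up IGF2 for breakdown and sorts lysosomal enzymes. The binding proteins hold IGFs outside the cell, extend or block their action, and are cleaved by dedicated proteases. IGFBP7 binds IGFs weakly and is a matrix-associated relative of the others. In arteries, IGF1 is a known growth and survival factor for smooth muscle, which expresses the receptor.

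Among the 7 classes, Igf1 stood out in macrophages and fibroblasts. Its gene (ENSMUSG00000020053) lies at chr10:87858265-87937042 on the plus strand of GRCm38. Igf1 stood at 411 CPM (394 to 428) in macrophages of library 1 and 448 (426 to 471) in those of library 2. Fibroblasts followed at 211 CPM (204 to 218) and 192 (185 to 200). The macrophage level was 1.95 and 2.33 times the fibroblast level, with intervals that left out 1 in both libraries. The other 5 classes ranged from 7.08 to 25.6 CPM, of which contractile smooth muscle lay under its carry-over figure in both libraries. With each barcode thinned to 3000 UMIs, 54.3% of macrophages in library 1 and 50.7% in library 2 held an Igf1 UMI (67.4% and 63.3% before thinning). The share was 35.7% and 36.0% in fibroblasts (52.5% and 51.7% before thinning), and 2.04% and 1.87% in T cells.

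Igf1 differed within macrophages. Barcodes with at least 3 genes of the set Cd5l, Gpnmb, Atp6v0d2, Trem2 and Fabp5, genes linked to lipid handling, held 503 and 515 CPM. Those with the antigen presentation set of Cd72 and class II genes held 192 CPM in library 1 and 397 in library 2, so the size of that gap differed between the libraries (2.62-fold and 1.30-fold). Barcodes with the set Lyve1, F13a1, Cd163 and Pf4 were few (30 and 7) and held 154 and 178 CPM. Barcodes that met none of these sets held 542 and 611 CPM, not separable from the lipid set in library 1 and 1.19-fold above it in library 2. Barcodes in more than 1 set (115 and 70) held 414 and 377 CPM. The subset genes here and below were chosen with earlier results of these data known, and some of them also shape the classes, so subset levels are descriptions.

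Igf2 (ENSMUSG00000048583, chr7:142650766-142666816, minus strand) was low and, of the 7 classes, highest in endothelial cells, which held 61.7% and 48.0% of its UMIs. It reached 16.0 CPM (14.0 to 18.2) in library 1 and 27.9 (22.3 to 34.6) in library 2 there, from 230 and 84 UMIs. Contractile smooth muscle, the next class, held 4.21 and 2.52 CPM, and chondrocytes held 0 UMIs in both libraries, where the limit set by 3 counts is 2.01 and 0.696 CPM and the upper end of the exact Poisson interval is 2.47 and 0.856 CPM. Endothelial barcodes with both Cytl1 and Gkn3 are called the aortic set here, and those with at least 2 of Ackr1, Selp and Sele the venular set. Barcodes that met both sets (217 and 12) are in neither group, which leaves 299 and 76 aortic and 170 and 50 venular barcodes. The aortic set carried 40.3 and 48.6 CPM of Igf2. The venular set carried 7.60-fold less in library 1 and 9.19-fold less in library 2. Barcodes of neither set carried 13.7 and 35.9 CPM, 2.93-fold below the aortic set in library 1 and not separable from it in library 2 (ratio 1.35, interval 0.844 to 2.19). Their depth was lower, with medians of 4703 and 4786 UMIs against 9618 and 8496 in the aortic set. A set gene can be missed in a shallow barcode, and the part of this depth gap was not tested. Contractile smooth muscle barcodes with UMIs of both Pln, a calcium pump regulator, and Notch3, a mural cell receptor, held 15.1 and 14.4 CPM, 6.48-fold and 7.38-fold above the contractile barcodes without the pair. H19, the imprinted RNA gene 72622 bases from Igf2, gave 69 UMIs in endothelial cells of library 2, and 65 of them came from 1 barcode.

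Both receptors were spread over all 7 classes, with no class 2-fold above the rest. Igf1r (ENSMUSG00000005533, chr7:67952827-68233668, plus strand) held 228 CPM (220 to 236) in contractile smooth muscle of library 1 and 200 (193 to 207) in library 2. T cells held 210 CPM (182 to 241) and 256 (218 to 297), not separable from contractile smooth muscle in library 1 and 1.28-fold above it in library 2. Modulated smooth muscle, fibroblasts, chondrocytes and endothelial cells lay between 119 and 161 CPM. Macrophages were lowest at 60.3 (54.1 to 67.1) and 62.6 (54.7 to 71.4) CPM, a gap of 1.98-fold and 2.15-fold to the class above them. Macrophages thus had the highest Igf1 and the lowest Igf1r of the 7 classes in both libraries. In thinned barcodes, 10.9% and 9.70% of macrophages held UMIs of both genes. Among the classes too small to rank, neutrophils (80 and 19 barcodes) held 666 and 1205 CPM of Igf1r and monocytes (30 and 17) held 239 and 274. Schwann cells (69 and 34) held 182 and 221 CPM, within the range of the ranked classes.

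The T cell level of Igf1r came from a small share of the cells. Of 147 and 107 T cell barcodes, 38 and 29 held an Igf1r UMI, and 6 barcodes carried 50% or more of the UMIs in each library.

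Igf2r (ENSMUSG00000023830, chr17:12682406-12769664, minus strand) was highest in chondrocytes, at 126 CPM (109 to 146) and 134 (124 to 146). The next class, blood endothelial, held 80.0 and 117 CPM. The lowest was macrophages, at 55.9 (49.9 to 62.4) and 48.7 (41.7 to 56.5), which in library 1 could not be separated from contractile smooth muscle at 60.1. Airn, an antisense RNA gene that overlaps Igf2r, was more abundant than Igf2r in every class and had its highest level in the same class, chondrocytes, at 543 and 598 CPM. The sources used here do not say whether the counting used the strand, so reads of the overlapping part cannot be assigned with certainty. Igf1os, antisense to Igf1, gave 9.07 and 11.7 CPM in macrophages and at most 0.647 in any other class.

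**Figure D1:**
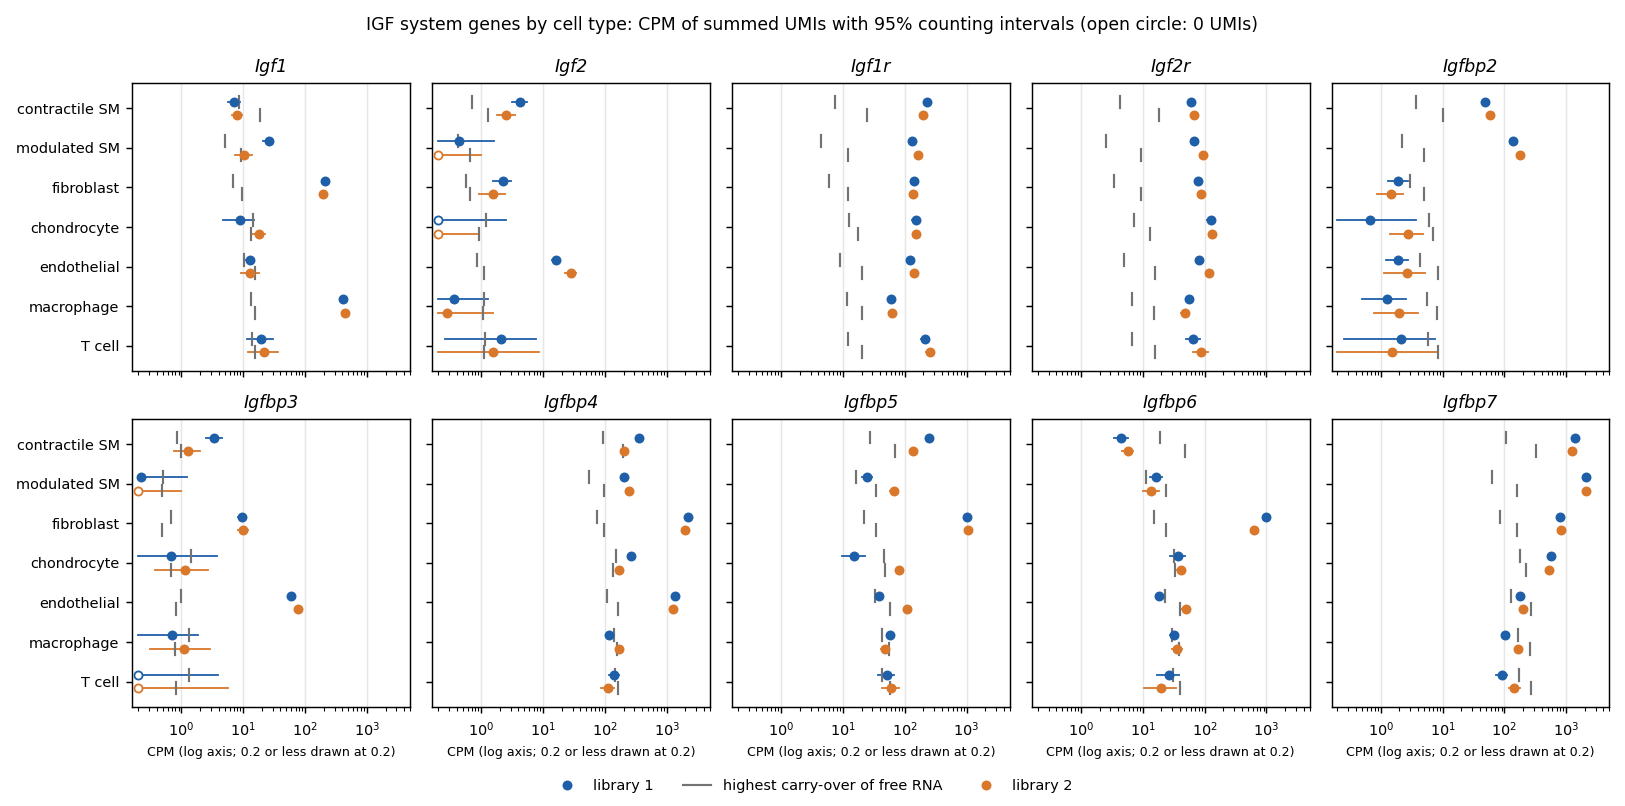
Level of each of the 10 IGF system genes in 7 cell types, as CPM of summed UMIs on a log axis. Blue points are library 1 and orange points library 2, bars are exact Poisson 95% intervals, open circles mark 0 UMIs, and grey ticks mark the carry-over figure. Igf1 stands out in macrophages and fibroblasts, Igfbp2 in both smooth muscle classes, Igfbp3 in endothelial cells and Igfbp6 in fibroblasts, while both receptors lie well to the right of their ticks in every class.

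The class with the highest level differed among the binding proteins. A member was said to have a leading class where 1 class was at least 2-fold above every other in both libraries at 20 CPM or more. Of the 10 members, 4 had one, and 9 reached 20 CPM in some class of both libraries. The background over 8979 genes tested the same way was 19.4%. The 4 were all binding proteins: Igfbp2 in modulated smooth muscle, Igfbp3 in endothelial cells, and Igfbp5 and Igfbp6 in fibroblasts.

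Igfbp2 (ENSMUSG00000039323, chr1:72824503-72852474, plus strand), a binding protein known for cell contacts through an integrin-binding motif, was a smooth muscle gene here. Modulated smooth muscle, the class with smooth muscle markers and genes such as Lum, Tnfrsf11b and Col8a1, held 140 CPM (129 to 151) in library 1 and 177 (164 to 191) in library 2. Contractile smooth muscle held 48.3 (44.6 to 52.3) and 57.9 (54.2 to 61.9). In the other 5 classes Igfbp2 was at 0.669 to 2.78 CPM, under the carry-over figure in each. Few barcodes carried these UMIs. Of 201 and 278 modulated barcodes, 60 and 46 held an Igfbp2 UMI, and 1 barcode alone held 17.4% and 44.3% of the total. Without the barcode richest in Igfbp2 in each class, modulated smooth muscle held 116 and 99.5 CPM and contractile smooth muscle 38.5 and 50.6, so the gap in library 2 fell just under 2-fold and Igfbp2 lost its leading class. Thinned shares were 18.9% (13.7 to 25.0) and 9.71% (6.50 to 13.8) in modulated against 5.14% (3.85 to 6.70) and 5.76% (4.61 to 7.09) in contractile smooth muscle, intervals that met in library 2. The median modulated barcode held 22053 UMIs in library 1 and 6184 in library 2, and the part of this depth gap in the unthinned values was not tested.

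Igfbp7 (ENSMUSG00000036256, chr5:77349240-77408041, minus strand) was the most abundant member in smooth muscle. It stood at 2098 CPM (2056 to 2140) and 2107 (2060 to 2154) in modulated smooth muscle, above contractile smooth muscle at 1396 and 1255 by 1.5 and 1.68 times. Fibroblasts followed with 800 and 831 CPM and chondrocytes with 576 and 534. The order of these 4 classes was the same in both libraries, and each step exceeded the counting error. Macrophages and T cells lay under their carry-over figures. Endothelial cells did so in library 2 (200 against 270 CPM) and not in library 1 (178 against 127 CPM). In contrast to Igfbp2, Igfbp7 was found in nearly every modulated barcode: 201 of 201 in library 1 and 277 of 278 in library 2.

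Igfbp3 (ENSMUSG00000020427, chr11:7206086-7213923, minus strand), the main carrier of IGFs in blood, led in endothelial cells at 59.4 CPM (55.5 to 63.5) and 77.5 (67.9 to 88.1). Fibroblasts held 9.57 and 10.0 CPM, a gap of 6.21-fold and 7.73-fold. The level came from 62 of 1041 and 23 of 268 endothelial barcodes, and 5 barcodes held 70.2% and 80.3% of the UMIs. It was highest in endothelial barcodes that met neither gene set, at 261 and 160 CPM, and in the aortic set it was 33.5-fold and 14.2-fold lower, at 7.81 and 11.3 CPM. Barcodes of neither set were shallower, with medians of 4703 and 4786 UMIs against 9618 and 8496 in the aortic set. The part of this depth gap in the Igfbp3 values was not tested. With barcodes over 20000 UMIs left out, the endothelial level was 26.2 CPM in library 1 and 72.5 in library 2 against 15.9 and 15.2 in fibroblasts, and the leading class was lost.

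Igfbp4 (ENSMUSG00000017493, chr11:99041244-99054392, plus strand), which holds IGFs until the protease PAPP-A cleaves it, had the highest level of any member in library 1, while in library 2 Igfbp7 in modulated smooth muscle was higher. Fibroblasts held 2229 CPM (2206 to 2251) and 1984 (1959 to 2009), and endothelial cells 1350 (1331 to 1369) and 1256 (1216 to 1297), 1.65-fold and 1.58-fold lower. Every other class held 111 to 352 CPM, and macrophages and T cells lay within the counting interval of their carry-over figures or under them. The chondrocyte level depended on deep barcodes. With those over 20000 UMIs left out, it was 1101 CPM in library 1 (36 barcodes) and 331 in library 2 (274 barcodes). Within the endothelium the aortic set held 2.48-fold and 1.97-fold more than the venular set. Thinned barcodes with an Igfbp4 UMI made up 89.9% and 89.2% of fibroblasts and 82.6% and 82.1% of endothelial cells (98.0% and 96.5%, and 93.5% and 91.0%, before thinning). The thinned share was 19.05% and 14.02% in T cells.

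Igfbp5 (ENSMUSG00000026185, chr1:72857932-72874884, minus strand), a matrix-binding member of the family, was at 1025 CPM (1010 to 1041) and 1044 (1026 to 1062) in fibroblasts. Contractile smooth muscle came next at 245 (237 to 254) and 137 (132 to 143). Its gene is the neighbour of Igfbp2, 5457 bases away and facing it, yet modulated smooth muscle, where Igfbp2 was highest, held just 25.0 and 66.2 CPM of Igfbp5. Igfbp6 (ENSMUSG00000023046, chr15:102144362-102149511, plus strand), which prefers IGF2 over IGF1, stood apart in fibroblasts, at 991 CPM (976 to 1006) and 634 (620 to 648). The next class was 26.9-fold and 12.8-fold lower, and contractile smooth muscle, at 4.53 and 5.70 CPM, was under its carry-over figure.

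As a set, the 6 binding proteins took 5056 and 4504 CPM in fibroblasts, 2483 and 2609 in modulated smooth muscle, 2050 and 1660 in contractile smooth muscle and 1645 and 1693 in endothelial cells. The sums in macrophages and T cells, 309 to 427 CPM, were under the summed carry-over figures of the 6 genes, 388 to 540.2 CPM, in both libraries, and are read as background. These sums are UMI counts of transcript ends, which are not scaled by gene length, and how well each transcript is caught is unknown. Igfbp7 made up 84.5% and 80.8% of the sum in modulated and 68.1% and 75.6% in contractile smooth muscle. Igfbp4 made up 82.0% and 74.2% in endothelial cells. In fibroblasts 4 members shared the sum, with 44.1% and 44.0% Igfbp4, 20.3% and 23.2% Igfbp5, 19.6% and 14.1% Igfbp6 and 15.8% and 18.5% Igfbp7. In single thinned fibroblasts, 24.0% and 28.0% held UMIs of Igfbp4, Igfbp5 and Igfbp6 at once, and 5.92% and 5.84% held none of them.

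**Figure D2:**
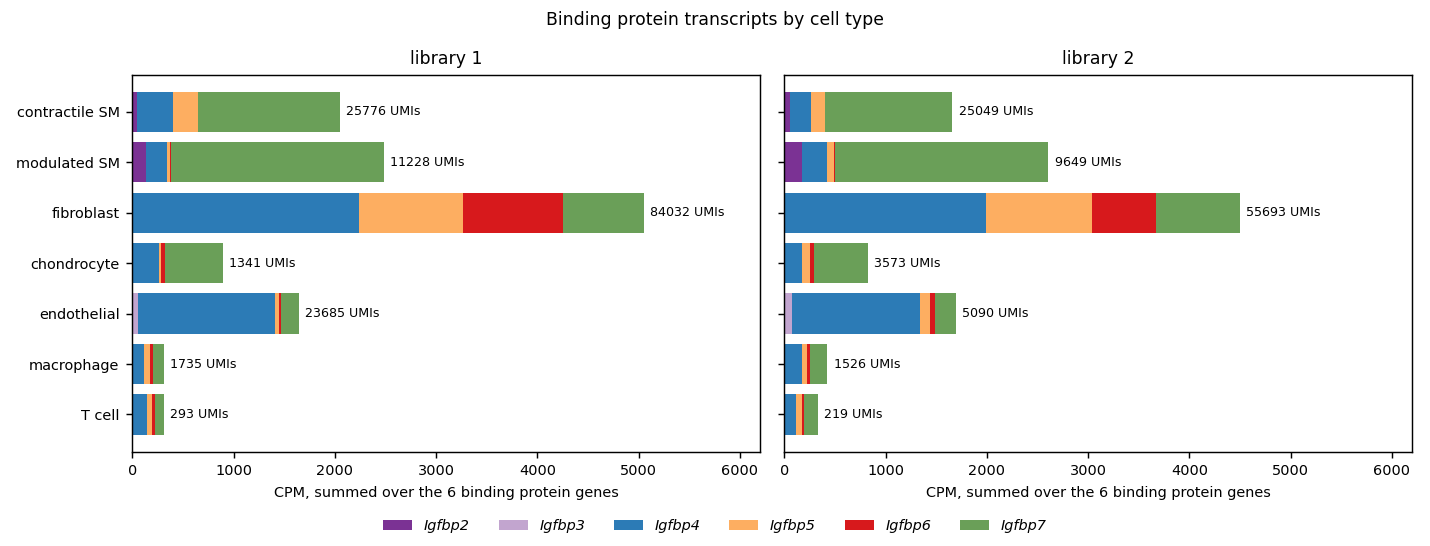
Summed CPM of the 6 binding protein genes in each cell type, stacked by gene, for library 1 (left) and library 2 (right). Bar length is the sum, and the number beside each bar is the UMIs counted. Fibroblast bars reach 5056 and 4504 CPM and hold 4 genes in quantity, smooth muscle bars are mostly Igfbp7, and endothelial bars are mostly Igfbp4.

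The 4 promoters below belong to the pair highest in modulated smooth muscle, Igfbp2 and Igfbp7, and to the pair that led in fibroblasts, Igfbp5 and Igfbp6, so that members with a shared cell type can be compared. Each runs 5′ to 3′ from 250 to 20 bases before the RefSeq start on GRCm38.p6. Capitals mark every match on either strand to 3 motifs. The GC box is spelled GGGCGG. The TATA box searched for is TATAAA. The E-box is spelled CANNTG, with N for any base. The windows are chr1:72824230-72824460 on the plus strand, chr5:77408065-77408295 on the minus strand, chr1:72874885-72875115 on the minus strand and chr15:102143936-102144166 on the plus strand.
Igfbp2: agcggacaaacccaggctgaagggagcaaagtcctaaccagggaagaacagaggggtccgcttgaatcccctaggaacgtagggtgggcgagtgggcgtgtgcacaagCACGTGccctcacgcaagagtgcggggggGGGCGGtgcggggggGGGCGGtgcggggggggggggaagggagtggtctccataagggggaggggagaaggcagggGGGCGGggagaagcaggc
Igfbp7: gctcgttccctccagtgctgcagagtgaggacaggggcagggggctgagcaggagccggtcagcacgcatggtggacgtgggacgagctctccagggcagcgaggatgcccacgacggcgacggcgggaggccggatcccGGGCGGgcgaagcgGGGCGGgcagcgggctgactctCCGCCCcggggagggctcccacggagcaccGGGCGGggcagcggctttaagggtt
Igfbp5: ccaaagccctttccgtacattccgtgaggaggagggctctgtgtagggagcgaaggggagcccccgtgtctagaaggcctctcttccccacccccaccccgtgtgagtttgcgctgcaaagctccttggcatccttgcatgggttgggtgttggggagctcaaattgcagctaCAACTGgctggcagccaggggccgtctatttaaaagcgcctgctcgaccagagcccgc
Igfbp6: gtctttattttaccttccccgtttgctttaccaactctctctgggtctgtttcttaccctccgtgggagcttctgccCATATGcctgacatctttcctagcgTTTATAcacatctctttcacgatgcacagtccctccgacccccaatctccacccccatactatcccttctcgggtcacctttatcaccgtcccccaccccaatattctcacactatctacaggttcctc

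Igfbp2 held 3 GC boxes at the start shown and Igfbp7 held 4, while the fibroblast pair held 0. Igfbp2 has another RefSeq start, whose window (chr1:72825137-72825367) held 0 GC boxes, so this difference between the pairs rests on the start shown. Of 32841 promoter windows of this length, 30.0% held a GC box, 11.8% a TATA box and 63.6% an E-box. The G and C content was 73.6% for Igfbp7, 68.4% for Igfbp2 at the start shown and 56.3% at the other, and 60.6% and 50.2% for Igfbp5 and Igfbp6, so at its other start Igfbp2 lay between the fibroblast pair. Igfbp6 held a TATA box at 148 to 143 bases before the start, on the opposite strand. None of the 4 windows shown held a CArG box, the element bound by serum response factor, which was in 1.42% of all windows, or an AP-1 site (TGANTCA), which was in 6.36%. The other Igfbp2 window held an AP-1 site at 39 to 33 bases before its start. All 10 members had a RefSeq window, and a match of letters is a description and not a binding site. For Igfbp2 and Igf2, which have several starts, which start gave the UMIs was not measured.

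Fibroblasts differed widely among themselves in their binding proteins. Barcodes were grouped by at least 2 genes of 1 set and no other: an Inmt set (Inmt, Hsd11b1, Dpep1; 268 and 260 barcodes), an Opcml set (Opcml, Pcsk6, Cd55; 102 and 28), an Apod set (Apod, Gpc3, Ccl11; 35 and 54), a Penk set (Penk, Mmp13, Prg4; 52 and 90) and a Saa3 set (Saa3, Cxcl14; 16 and 24). A further 475 and 423 barcodes met more than 1 set and 352 and 269 met none, and these are left out of the comparison. Igfbp6 was highest in the Opcml set, at 2756 and 2271 CPM, which was 4.72-fold and 3.62-fold above the Inmt set. The Apod set held 2602 and 1543. The Penk set was low in Igf1, Igfbp4, Igfbp5 and Igfbp6. Its Igf1 was 38.6 and 36.3 CPM, 7.17-fold and 7.33-fold below the Inmt set, its Igfbp5 10.8-fold and 6.31-fold below, and its Igfbp6, at 49.3 and 64.2 CPM, 55.9-fold and 35.4-fold below the Opcml set. Igfbp7 did not follow, with 838 and 845 CPM in the Penk set and 603 and 425 in the Opcml set. Igf2r went the other way, 2.09-fold and 2.51-fold higher in the Penk than in the Inmt set, and Igf1r stayed between 120 and 177 CPM in all 5 sets. Penk barcodes were deeper, with medians of 19872.5 and 18852 UMIs against 7455 and 6518.5 in the Inmt set. The part of this depth gap in the Penk values was not tested.

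Contractile smooth muscle also held a distinct group. The barcodes with Pln and Notch3 (149 of 992 and 63 of 1442) held 1029 and 784 CPM of Igfbp4, 4.37-fold and 4.49-fold above those without the pair. Their Igfbp5 was 784 and 625 CPM, 5.14-fold and 5.49-fold higher. Igf2r was 1.98-fold and 2.03-fold higher, Igfbp2 was 2.67-fold and 3.20-fold lower, and Igf1r differed by 1.13-fold in library 1 and 1.07-fold in library 2, where the interval held 1. The markers of small-vessel mural cells did not move as one in this group: Higd1b was 38.3 and 44.5 CPM with the pair against 3.17 and 2.22 without, while Kcnj8 and Abcc9 were lower with the pair in both libraries, and Rgs5 was lower with it in library 1 (436 against 1000 CPM) and higher in library 2 (2304 against 1574).

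**Figure D3:**
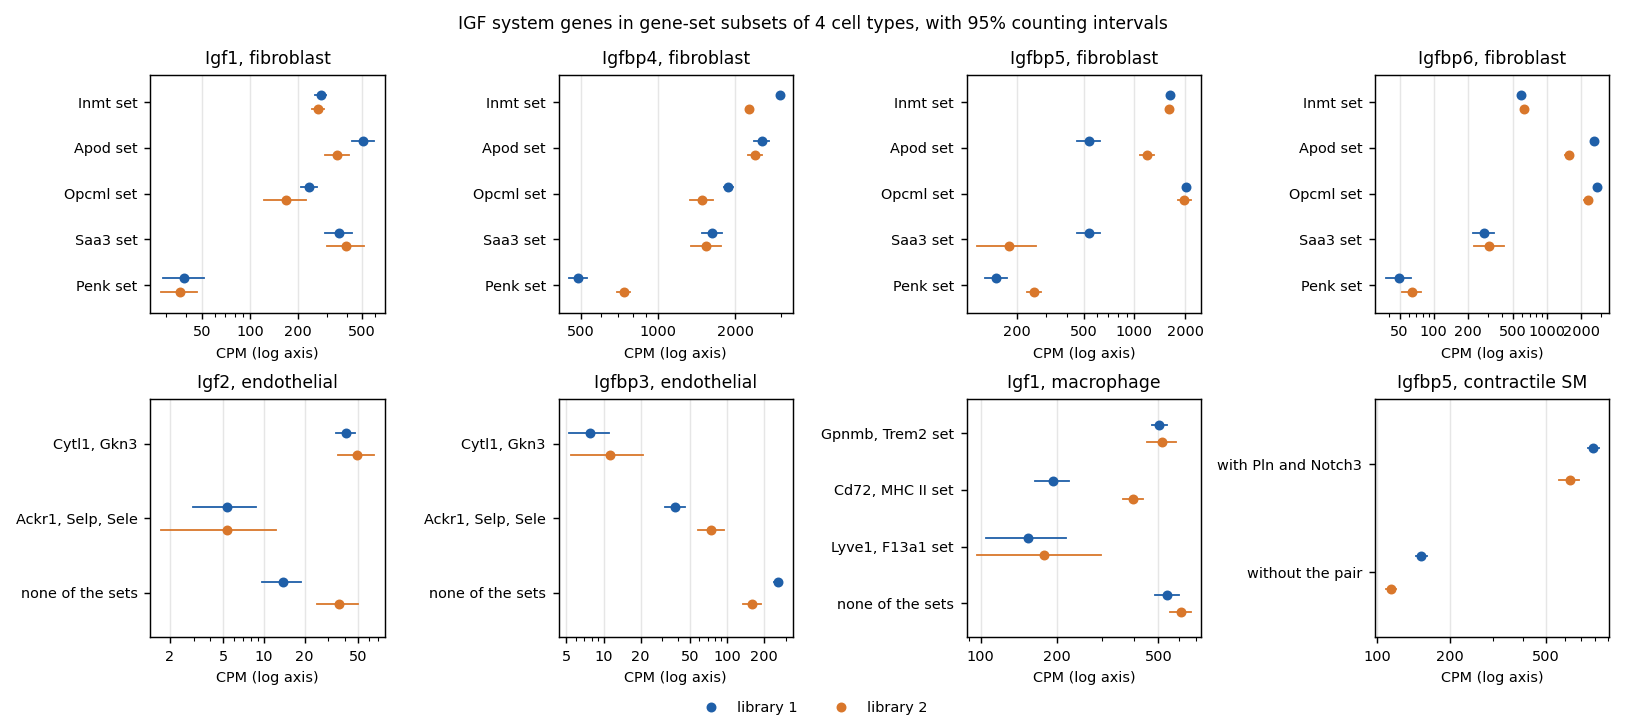
Levels of selected members in subsets of 4 cell types, in CPM on log axes with exact Poisson 95% intervals; each panel has its own range. Blue points are library 1 and orange points library 2. The Penk set is lowest of the 5 fibroblast sets for Igf1, Igfbp4 and Igfbp6. Among the endothelial groups shown, which leave out barcodes that met both sets, Igf2 is highest in the aortic set (Cytl1 and Gkn3). In library 2 its interval there meets that of barcodes of neither set. Igfbp3 is highest in barcodes of neither set, and Igfbp5 is higher in contractile barcodes with Pln and Notch3.

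How evenly a member was spread over the cells of its class differed from gene to gene. In macrophages, 38 and 27 barcodes held 50% or more of the Igf1 UMIs, out of 273 and 235 with any. For Igfbp7 in modulated smooth muscle it took 48 and 41 barcodes, against 7 and 2 for Igfbp2 in the same cells. For Igfbp3 in endothelial cells it took 2 and 3, and for endothelial Igf2 9 and 5. Whether such rich barcodes are single cells was not tested, since no doublet caller was run. The richest Igfbp3 barcode of library 1 held 56004 UMIs in all, 234 of them Igfbp3.

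**Figure D4:**
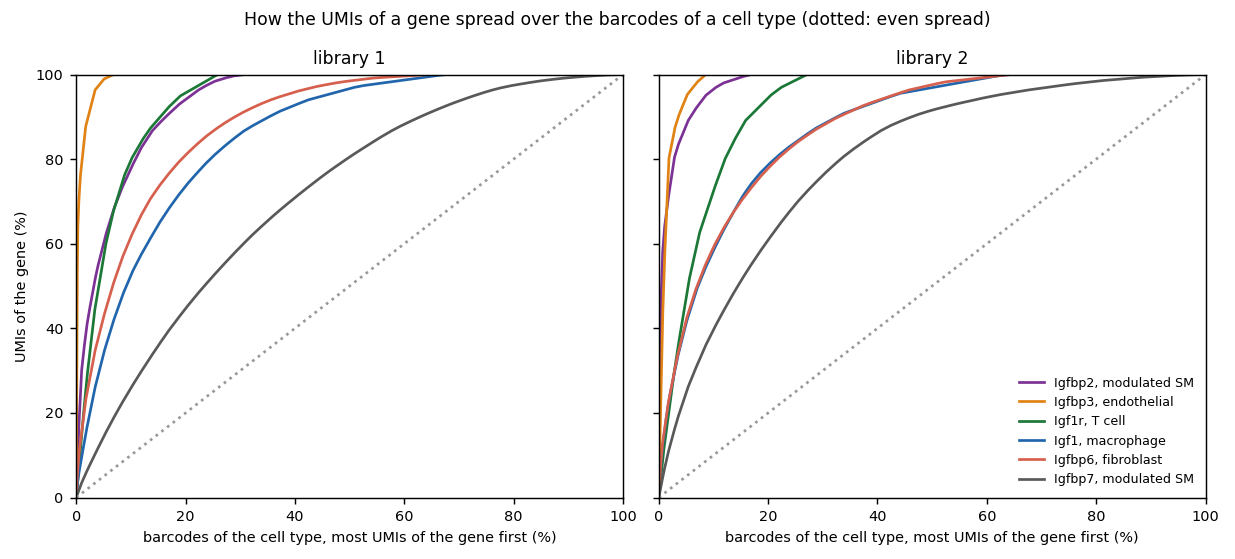
Share of a member's UMIs (vertical, percent) against the share of a class's barcodes, richest first (horizontal, percent), in library 1 (left) and library 2 (right). The dotted line is an even spread. The Igfbp7 curve in modulated smooth muscle lies nearest to it, and the Igfbp3 curve in endothelial cells rises fastest, with 5 barcodes holding 70.2% and 80.3% of the UMIs.

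Between the libraries, a member differed in a class where the levels were 1.5-fold or more apart, the interval of the ratio left out 1 and the level was 20 CPM or more in at least 1 library. Of 48 such pairs of member and class, 12 differed, 7 higher in library 2 and 5 higher in library 1. Over all genes in the 7 classes, 9.91% of 46458 pairs differed, 6.38% higher in library 2 and 3.54% higher in library 1. With TMM scaling, which moves library 2 against library 1 by -0.25 (log2) in endothelial cells, -0.18 in macrophages and -0.12 to -0.01 in the other classes, the split was 4 higher in library 2 and 5 higher in library 1. That split was out of 47 pairs, and over all genes 9.63% of pairs differed with this scaling. These are differences between 2 libraries and not between conditions.

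Igfbp5 differed in 4 classes, and in both directions. It was higher in library 1 in contractile smooth muscle (245 against 137 CPM), and higher in library 2 in modulated smooth muscle (25.0 against 66.2), chondrocytes (15.4 against 82.1) and endothelial cells (38.1 against 107). Chondrocyte Igfbp5 in library 1 was under its carry-over figure of 46.2. Igfbp4 was 1.74-fold higher in library 1 in contractile smooth muscle and 1.61-fold in chondrocytes. Its contractile level in library 2, 202.9 CPM, was barely above the carry-over figure of 194.5. The contractile gaps came with a different number of barcodes with Pln and Notch3, 149 in library 1 and 63 in library 2. In the contractile barcodes without that pair, Igfbp4 was 235 and 175 CPM and Igfbp5 152 and 114. The summed fibroblast markers in contractile barcodes were 1140 and 671 CPM, and their part in the result was not tested.

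In endothelial cells Igf2 was 1.75-fold, Igfbp5 2.81-fold and Igfbp6 2.71-fold higher in library 2. Endothelial Igfbp6 was under its carry-over figure in library 1 (18.3 against 22.7 CPM) and above it in library 2 (49.6 against 39.9). Without the barcode richest in Igfbp6 the library 2 level was 36.6 CPM. With TMM scaling the Igf2 difference was 0.56 (log2) and under 1.5-fold, so this call was lost. Endothelial barcodes of library 2 also held more fibroblast marker UMIs (2525 against 2141 CPM over 10 markers, none at 0) and more smooth muscle marker UMIs (1655 against 1081 CPM over 10 markers, none at 0), and the part of these in the result was not tested. Within the aortic set Igfbp6 was 15.1 and 14.7 CPM and within the venular set 17.7 and 10.6, so the higher level of library 2 lay in barcodes of neither set or of both. Igfbp5 was 29.4 and 130 CPM in the aortic set and 21.6 and 20.1 in the venular set. Igfbp6 in fibroblasts was 1.56-fold higher in library 1, which also had more barcodes of the Opcml set (102 against 28). In the Inmt set it was 584 and 627 CPM, while within the Opcml and Apod sets the level given above was higher in library 1. Apod barcodes were more numerous in library 2 (35 against 54). The part of the set sizes in the fibroblast result was not tested. The remaining calls were Igf1 in modulated smooth muscle, 25.6 against 10.3 CPM, and Igfbp7 in macrophages (103 and 169 CPM) and T cells (90.1 and 145 CPM). Both Igfbp7 levels were under their carry-over figures. For Igf1 the library 2 interval (7.27 to 14.1) held the carry-over figure of 9.32. The Igf1 call was lost, among other settings, with barcodes over 20000 UMIs left out.

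**Figure D5:**
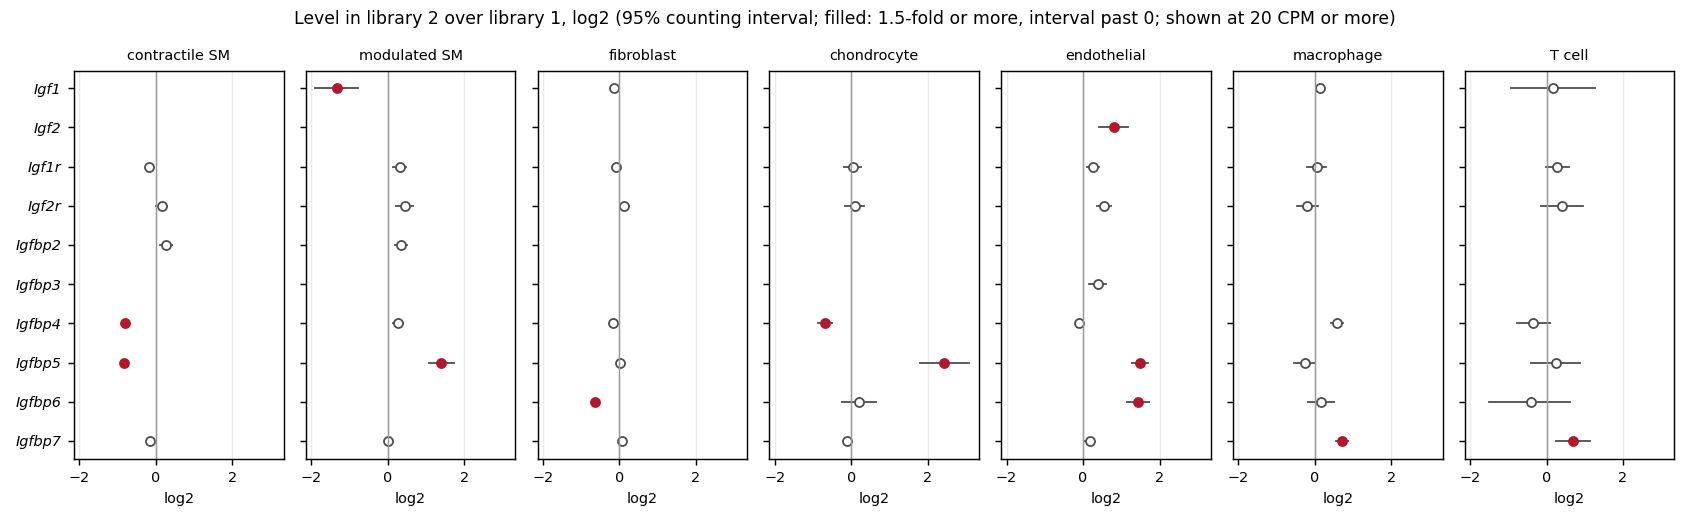
Level of each member in library 2 over library 1, as log2 ratio with 95% counting interval, for the 48 pairs at 20 CPM or more, 1 panel per cell type. Filled red points are the 12 pairs at 1.5-fold or more whose interval leaves out 0. Igfbp5 lies left of 0 in contractile smooth muscle and right of it in modulated smooth muscle, chondrocytes and endothelial cells.

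The genes most like each member across the 7 classes were ranked by the lower of the 2 libraries' Pearson correlations of log2(CPM + 10). The points are 7 classes that share a library, the values are descriptions, and the first 3 genes are named. For Igf1 they were Emilin2, Naaa and Ifi204, with lower correlations of 0.96. Igf1r went with Esyt2, Csnk1a1 and Cdadc1 (0.91 to 0.95), and Igf2r with Tmem39a, Yod1 and Ssh1 (0.91 to 0.95). For Igfbp2 they were Kcnk3, a potassium channel, Gfm1 and Apol6, and for Igfbp3 Hoxb9, Fgd5 and Hspa12b. Igfbp4 had Trpm3, Ndn and Slc43a3, and Igfbp5 had Ebf2, Gria4 and Tmeff2. Igfbp6 had Svep1, Fbln1, which was itself a fibroblast marker here, and Dpep1. Igfbp7 had Postn, the matrix protein periostin, Dzip1l and Calhm5, and Postn reached 1626 and 1180 CPM in modulated smooth muscle.

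The other genes of the pathway were counted by list, and each count of leading classes below stands beside the 19.4% of all genes tested. That share is over genes at 20 CPM or more in some class of both libraries. This level was met by 5 of 9 proteases and inhibitors and 5 of 5 growth hormone genes. It was also met by 1 of 5 further binding proteins, 1 of 3 RNA-binding proteins and 6 of 9 imprinted genes. Of 17 adaptors and kinases that act under the receptors, 17 reached 20 CPM and 15 reached 50 CPM in some class of both libraries, and 0 had a leading class. Foxo1, a transcription factor restrained by this signal, was highest in T cells at 289 and 299 CPM. Grb2 was highest in macrophages (208 and 178 CPM), and Grb10, an imprinted inhibitor of the receptor, in chondrocytes (112 and 135 CPM), with lowest levels of 5.52 and 1.54 CPM. The insulin receptor gene Insr was highest in contractile smooth muscle, at 72.8 and 85.6 CPM, the class that shared the top of Igf1r with T cells.

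Of 9 proteases of binding proteins and their inhibitors, 3 reached 50 CPM and 0 had a leading class. Htra1, a secreted serine protease, was highest in modulated smooth muscle at 419 and 425 CPM. Htra3 was highest in fibroblasts, at 391 and 225 CPM, and Adam9 in modulated smooth muscle. Of 5 genes of growth hormone input to Igf1, 4 reached 50 CPM and 2 had a leading class: the transducer Stat5b (155 and 169 CPM) and the feedback gene Cish (104 and 135 CPM), both in T cells. The growth hormone receptor gene Ghr was highest in endothelial cells of library 1 (182 CPM) and in chondrocytes of library 2 (285 CPM). T cells held just 24.4 and 35.4 CPM of Ghr, and macrophages, highest in Igf1, were lowest at 13.5 and 26.6 CPM. Growth hormone input itself was not measured.

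Of 5 further IGF-like binding proteins, Kazald1 reached 50 CPM, with 92.6 and 101 in modulated smooth muscle and 79.4 and 106 in fibroblasts, and no leading class. Igfbp1, 3539 bases from Igfbp3, had 0 UMIs in all 7 classes. Of 3 RNA-binding proteins of IGF2 mRNA, Igf2bp2 reached 50 CPM and led in chondrocytes (86.3 and 71.0 CPM), the class with 0 UMIs of Igf2. Of 9 imprinted growth genes, 4 reached 50 CPM, and 1, Gpc3, had a leading class, fibroblasts, at 104 and 105 CPM. Gpc3 was also a gene of the Apod set.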

How the data were processed

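The authors deposited 1 unfiltered matrix of raw UMI counts, made with Cell Ranger (version 6.0.1, per the file headers) on mm10, per the submitters' processing notes, which also list bcl2fastq and Seurat. The sources used here give neither the annotation, the strand setting nor a map from suffix to sample. The members and gene lists were chosen with earlier results of these data known.

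The deposited counts were summed per class and library, as 110257209 and 124266676 UMIs in all. A barcode entered a class when at least 50% of its markers were detected and their summed level was at least 1.5 times that of low-count barcodes and at least 500 CPM. Contractile smooth muscle had little Pdgfra, Pi16 and Clec3b (at most 0.3 times that level), modulated smooth muscle kept smooth muscle markers, and barcodes passing several gates (207 and 83) were left out; no doublet caller was run. The gates used 21 marker lists. Classes with under 50 barcodes in a library were not ranked. Named genes followed the stated rules: all members, the 3 genes most like each, and list genes at 50 CPM. Intervals are exact Poisson or Clopper-Pearson at 95%. Alternatives changed UMI and mitochondrial limits, gates, markers, scaling (TMM of edgeR 4.0.16) and thresholds. Gene positions come from GENCODE vM21. Sums and rules were tested on simulated data with Python 3.11.15, numpy 2.4.6, scipy 1.17.1 and pandas 2.3.3.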

Additional observations from a re-analysis of the deposited data

How the results depend on the processing

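The 4 members with a leading class numbered 3 to 5 in the other settings tried, apart from 7 when the lead asked for was 1.5-fold, which added Igf1, Igfbp4 and Igfbp7. Over all genes tested, the share with a leading class was 30.8% at 1.5-fold and 18.2% to 20.5% in the other settings. Igfbp5 and Igfbp6 kept their leading class in all 15 settings. Over all genes, 3.54% of pairs differed between the libraries when 2-fold was asked for and 8.75% to 12.0% in the other settings. The 12 differences of the members numbered 9 to 15, apart from 5 when 2-fold was asked for. Apart from that setting, 4 of the 12 were called in all 14 others: Igfbp4 in contractile smooth muscle, Igfbp5 in chondrocytes and in endothelial cells, and Igfbp6 in endothelial cells. Of these, chondrocyte Igfbp5 and endothelial Igfbp6 were under their carry-over figures in library 1. Contractile Igfbp4 in library 2, at 202.9 CPM (195.8 to 210.2), was barely above its figure of 194.5. With every other marker, 7 of the 12 were kept. Of 379 single values, 251 moved by less than their interval, 126 moved by more and 2 turned: Igf1r in T cells over contractile smooth muscle in library 2 was -0.10 (log2) with TMM scaling, and Igfbp7 in T cells in library 2 over library 1 was -0.026 (log2) with every other marker. The cause was not tested. Leaving out the barcode richest in a member was chosen after the data had been seen. No paired analysis was possible because each sample has 1 library and no label ties a library to a sample. Depth limits Igf2, Igfbp3 in most classes, and all levels in T cells and in the chondrocytes of library 1.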
